A study of Mus musculus with 4 samples.

Results

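BAF complexes are ATP-driven chromatin remodellers that slide and evict nucleosomes, and the mammalian brain builds them from alternative subunits. In dividing neural progenitors the complex is called npBAF and carries the products of Actl6a, Phf10, Dpf2 and Ss18. As cells leave the cell cycle and become neurons these are replaced by products of related genes, Actl6b, Dpf1, Dpf3 and Ss18l1, which gives the neuronal complex, nBAF. The 10 genes described here are these 4 progenitor and 4 neuronal subunit genes, plus Smarca4, which encodes the ATPase BRG1, and Smarcd3, which encodes a subunit with roles in heart and muscle development. They were chosen by name for their known roles, with earlier results of these data known, and each name matched 1 row of the 20421 genes in the table.

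The data are RNA sequencing of brain at embryonic day 15 (E15) in C57BL/6 mice, from FOXM1f/+;Nestin-Cre embryos and from WT embryos. FOXM1 is a transcription factor that drives late cell cycle genes, and the study names its human form. Nestin-Cre expresses Cre recombinase in neural progenitors, and the labels do not say how the FOXM1 allele was built or in which brain cells it was active. GEO lists 4 samples, 2 per genotype, although the design text mentions triplicates. The table analysed here has 1 read count column per genotype, called here the transgenic and the WT library, and no source says which sample, or pool, a column holds. The titles of the WT samples name a nestin allele for 1 and a foxm1 allele for the other, so the WT library may carry either. There is thus no measure of the spread between animals and no test: each comparison is between these libraries. A 95% interval given after a ratio covers counting error alone.

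The table summed to 17856653 reads for the transgenic and 17543705 for the WT library, and 14557 genes averaged at least 1 CPM, read counts scaled to the library total. Mouse Foxm1 had 72.2 CPM in the transgenic library and 64.9 CPM in the WT library, a ratio of 1.11 (1.03 to 1.21), and no value here measures a human FOXM1 transcript. Sex-linked genes set the libraries apart. Xist had 9628 transgenic and 5 WT reads, and 4 Y-linked genes (Eif2s3y, Kdm5d, Ddx3y, Uty) had 0 transgenic reads each, against 202 to 1266 WT reads. None of the 10 subunit genes lies on a sex chromosome. Of 6 choroid plexus markers, 5 had counting intervals below 1, and the list summed to 24.6 CPM in the transgenic library, against 719.8 CPM in the WT library, with none at 0. Of 6 erythroid markers, 4 had intervals above 1, and the list summed to 222 CPM in the transgenic library, against 56.0 CPM in the WT library. Of 6 microglial markers 3, and of 7 tested endothelial and meningeal markers 4, had intervals below 1, with sums of 33.1 and 102 CPM in the transgenic and 41.8 and 125.5 CPM in the WT library. For reference, counting intervals lay above 1 for 16.5% and below 1 for 19.2% of all genes tested. Sex, these marker levels and genotype cannot be told apart in a comparison of 1 library with 1 library.

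The subunit genes differed little in size between the libraries, with the exceptions of Smarcd3 and of the scarce Dpf3. In the transgenic library, 1 of the 10 genes was at least 25% higher (Dpf3) and 1 at least 20% lower (Smarcd3). Across all genes tested, 8.13% passed the first mark and 12.4% the second, so these counts lie near the background. None of the 10 genes was 1.5-fold or 2-fold apart, against 2.53% and 0.522% of all genes on the higher side and 5.23% and 1.83% on the lower side. Counting intervals lay wholly above 1 for 3 of the 10 genes and wholly below 1 for 3, where 16.5% and 19.2% of all genes tested had such intervals. Restricted to the 10138 genes that averaged 10 CPM or more, which leaves out Dpf3, those shares were 20.2% and 21.1%, and 3.84% and 5.21% of genes were at least 25% higher or 20% lower. What follows describes which genes lay on which side.

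**Figure D1:**
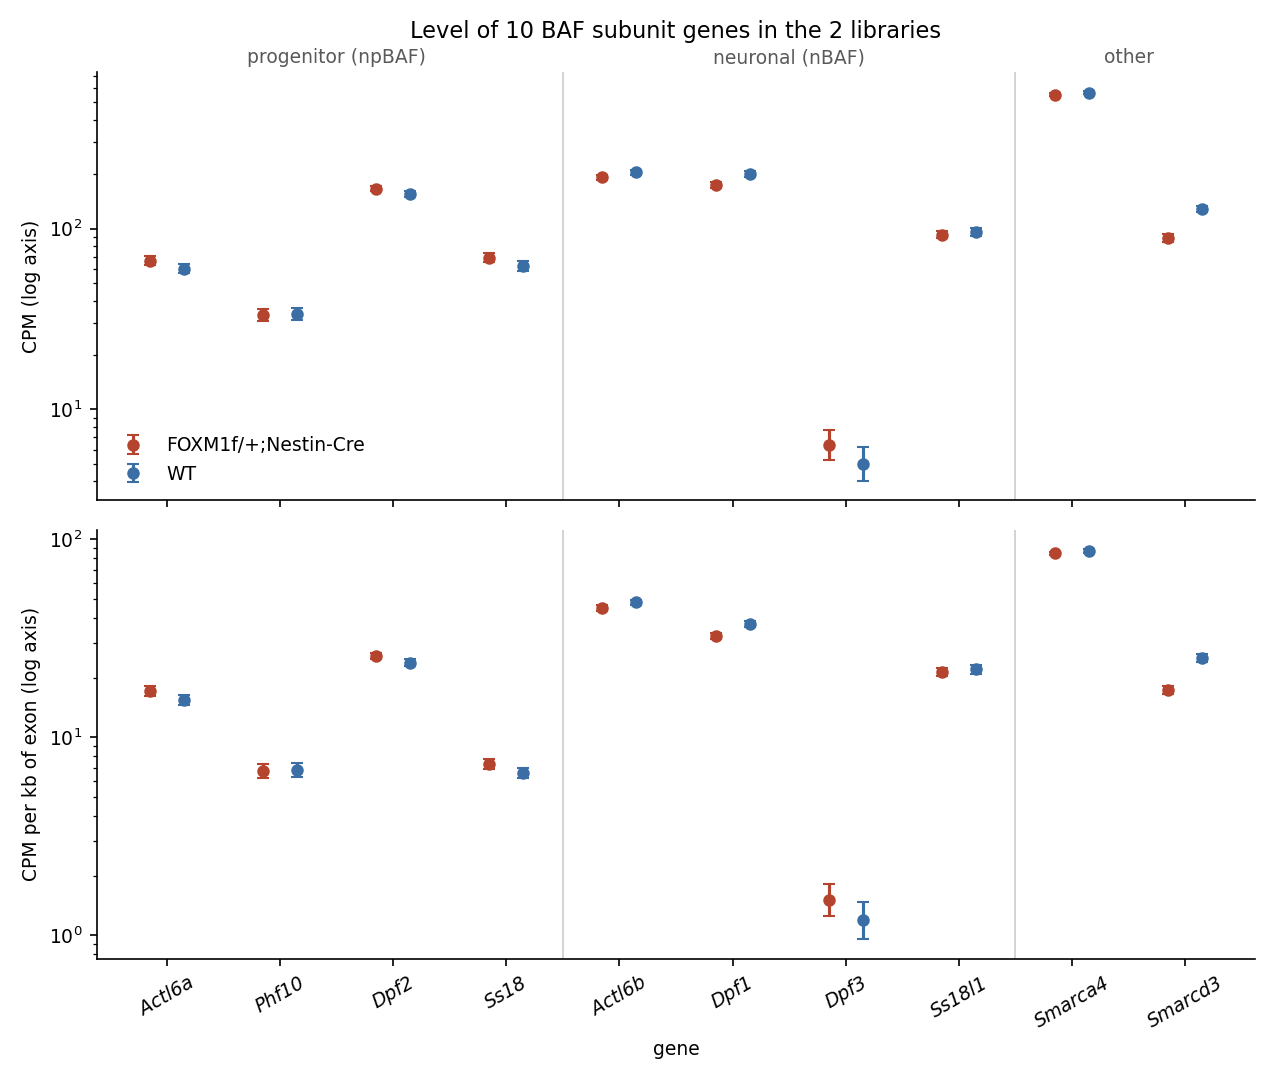
Level of each of the 10 subunit genes in the FOXM1f/+;Nestin-Cre (red) and WT (blue) library, in CPM (top) and in CPM per kb of annotated exon (bottom), both on log axes; bars are 95% counting intervals. Smarca4 was highest and Dpf3 lowest in both libraries. The libraries' intervals lie clearly apart for Smarcd3 and Dpf1, and only just apart for Actl6b.

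Of the 4 progenitor genes, 3 were slightly higher in the transgenic library, with intervals above 1, and the interval of the other spanned 1. Intervals above 1 were held by 16.5% of all genes tested and by 20.2% of those averaging 10 CPM or more. The summed level of the 4 genes was 335 CPM in the transgenic library and 311 CPM in the WT library, a ratio of 1.08 (1.04 to 1.12). The median log2 ratio of the 4 genes was 0.13, against -0.01 for all genes tested.

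Actl6a (ENSMUSG00000027671; chromosome 3, 32706298 to 32726973, + strand, GRCm38) encodes the actin-related subunit BAF53a of progenitor complexes and is shared with the INO80 and TIP60 remodellers. It had 1187 reads or 66.5 CPM in the transgenic library, against 1053 reads or 60.0 CPM in the WT library. The transgenic value was 1.11-fold the WT value (1.02 to 1.20). In mice, loss of Actl6a expression on cell cycle exit depends on its 3′ untranslated region, through which miR-9-3p (also called miR-9*) and miR-124 repress it. The sequences are shown because they are a known part of this gene's switch. The seed (bases 2 to 8) of miR-9-3p and the bases of the Actl6a transcript that pair with it are in capitals. Both are 5′ to 3′ from RefSeq (GRCm38.p6) and GENCODE M21, and the same mature sequence comes from Mir9-1, Mir9-2 and Mir9-3.
mmu-miR-9-3p: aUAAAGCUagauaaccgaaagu
Actl6a site, chr3:32726628-32726652, + strand: ctcaacgtctgtAGCTTTAgtacac
The seed match starts 38 bases after the stop codon, in a 3′ untranslated region of 371 bases. The libraries hold gene counts and do not measure mature miRNAs, so whether this site was in use was not tested. Mrpl47, a mitochondrial ribosomal protein gene on the opposite strand, overlaps the Actl6a gene by 1577 bases, and had 485 reads in the transgenic library, against 382 in the WT library. The strand setting of the counting is not given, so reads of the overlap could be assigned to either gene or to neither.

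Ss18 (ENSMUSG00000037013; chromosome 18, 14624198 to 14682914, - strand) encodes the subunit whose place the product of Ss18l1 takes in neurons. It had 1231 reads or 68.9 CPM in the transgenic library, against 1090 reads or 62.1 CPM in the WT library, 1.11-fold higher (1.02 to 1.20). Dpf2 (ENSMUSG00000024826; chromosome 19, 5896516 to 5913010, - strand), a double PHD finger protein that reads histone acylation, had 2974 reads or 167 CPM in the transgenic library, against 2716 reads or 155 CPM in the WT library. That is 1.08-fold higher (1.02 to 1.13), and Dpf2 was the most abundant of the 4 progenitor genes per length too.

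Phf10 (ENSMUSG00000023883; chromosome 17, 14945009 to 14961273, - strand), the PHD finger subunit of progenitor complexes and of the related PBAF complex, did not differ between the libraries beyond counting error. It had 595 reads or 33.3 CPM in the transgenic library and 592 reads or 33.7 CPM in the WT library, a ratio of 0.987 (0.880 to 1.11). The sign of its log2 ratio, -0.02, turned to 0.01 when the libraries were scaled by median-of-ratios (RLE) factors. The Phf10 gene overlaps 1600012H06Rik on the other strand over 14562 bases, so its count depends on how such reads were assigned.

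Of the 4 neuronal genes, Actl6b and Dpf1 were lower in the transgenic library with intervals below 1. The intervals of Ss18l1 and Dpf3 spanned 1. Intervals below 1 were held by 19.2% of all genes tested and by 21.1% of those averaging 10 CPM or more. The summed level of the 4 genes was 465 CPM in the transgenic library and 506 CPM in the WT library, a ratio of 0.919 (0.892 to 0.947). The median log2 ratio of the 4 genes was -0.07.

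Actl6b (ENSMUSG00000029712; chromosome 5, 137553517 to 137569582, + strand, GRCm38) encodes BAF53b, the neuron-restricted counterpart of BAF53a, needed for activity-dependent dendrite growth in mice. It had 3425 reads or 192 CPM in the transgenic library, against 3597 reads or 205 CPM in the WT library, 1.07-fold lower (1.02 to 1.12). Neuronal genes of this kind are held off outside neurons by the repressor REST, whose element has a left and a right part. Both parts stand in the first exon of Actl6b, on the strand opposite to the gene, in a stretch that begins 19 bases and ends 48 bases into the RefSeq transcript. The stretch is shown because it separates Actl6b from the other member windows searched, with the parts CAGCACC and GGACAG in capitals.
Actl6b, chr5:137553564-137553593, - strand: ggatCAGCACCgaggcggccGGACAGctcc
The parts are 9 bases apart. Both strands of windows from 250 bases before to 50 bases after each RefSeq start (GRCm38.p6) were searched. This spacing, which was read off the Actl6b stretch itself, was found in 4 of 32851 windows (0.0122%), that of Actl6b included. Any spacing of up to 12 bases was found in 37 windows (0.113%). The first share was thus set by Actl6b and does not measure how unusual its stretch is. The 9 member windows leave out Ss18, whose chromosome was filtered out for members but not for the count over all windows. Of these 9, Actl6b had both parts, and Dpf2 had the right part alone. A match is a description of letters, and Rest itself had 15.3 CPM in the transgenic library, against 14.2 CPM in the WT library, a ratio of 1.08 (0.907 to 1.29).

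The promoters of the progenitor and neuronal actin-related subunits, and of Smarcd3 as the gene with the widest gap, are shown upstream of the first annotated exon base in the window (5′ to 3′ along each gene, RefSeq GRCm38.p6). Capitals mark CCAAT, the box bound by NF-Y, on either strand.
Actl6a, chr3:32708296-32708506, + strand: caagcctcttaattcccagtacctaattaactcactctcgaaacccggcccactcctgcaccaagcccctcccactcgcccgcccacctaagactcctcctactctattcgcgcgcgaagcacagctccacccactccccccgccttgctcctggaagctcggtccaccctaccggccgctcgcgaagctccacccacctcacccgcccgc
Actl6b, chr5:137553296-137553516, + strand: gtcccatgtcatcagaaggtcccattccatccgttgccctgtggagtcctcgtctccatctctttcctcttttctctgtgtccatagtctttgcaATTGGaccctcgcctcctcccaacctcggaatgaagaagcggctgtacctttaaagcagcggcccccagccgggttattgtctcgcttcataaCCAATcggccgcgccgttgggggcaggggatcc
Smarcd3, chr5:24602013-24602252, - strand: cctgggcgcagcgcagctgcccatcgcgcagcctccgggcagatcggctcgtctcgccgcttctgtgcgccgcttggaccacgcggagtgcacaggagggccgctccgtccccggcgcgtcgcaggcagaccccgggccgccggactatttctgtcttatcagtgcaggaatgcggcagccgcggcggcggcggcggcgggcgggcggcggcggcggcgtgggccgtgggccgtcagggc
The GC content was 64.0% for Actl6a, 56.6% for Actl6b and 76.7% for Smarcd3, against a median of 52.7% over all windows at their full length. The RefSeq starts of Actl6a and Smarcd3 lie inside the genes' annotated spans, which hold further annotated starts. CCAAT was found in 4 of the 9 member windows, which leave out Ss18, and in 37.4% of all windows. The 4 were those of Actl6b, Dpf1, Dpf3 and Dpf2. The forkhead core TAAACA was in 0 of 9 member windows and 13.4% of all windows, and the cell cycle element TTTGAA in 0 of 9 and 17.9%. The E2F cores TTCCCGC and TTGGCGC were in 0 of 9 each, against 4.60% and 2.45% of all windows. With 9 windows these shares set no member apart.

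Dpf1 (ENSMUSG00000030584; chromosome 7, 29303951 to 29318243, + strand, GRCm38), the neuronal PHD finger subunit BAF45b, had the widest gap of the 4 neuronal genes relative to its counting error. It had 3117 reads or 175 CPM in the transgenic library, against 3518 reads or 200.5 CPM in the WT library. It was 1.15-fold lower (1.09 to 1.21), and 20.7% of all genes tested had a lower ratio. Its close relative Dpf3 (ENSMUSG00000021221; chromosome 12, 83213745 to 83487716, - strand), another neuronal PHD finger subunit that also acts in heart and muscle, was far scarcer. Dpf3 had 114 reads or 6.38 CPM in the transgenic library and 88 reads or 5.02 CPM in the WT library. The ratio of 1.27 had an interval of 0.955 to 1.70, which spans 1, so the direction was not set beyond counting error at this depth. Ss18l1 (ENSMUSG00000039086; chromosome 2, 180042509 to 180070201, + strand), which encodes CREST, a calcium-responsive activator that takes the place of Ss18 in neurons, had 1655 reads or 92.7 CPM in the transgenic library and 1678 reads or 95.6 CPM in the WT library. Its ratio was 0.969 (0.905 to 1.04).

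Smarcd3 (ENSMUSG00000028949; chromosome 5, 24590818 to 24624411, - strand, GRCm38) had the largest fold of the 10 genes between the libraries. It encodes BAF60c, 1 of the interchangeable subunits through which transcription factors contact the complex. It had 1582 reads or 88.6 CPM in the transgenic library, against 2257 reads or 129 CPM in the WT library, 1.45-fold lower (1.36 to 1.55). Of all genes tested, 6.00% had a lower ratio. The alternative subunits of the same position did not share this gap. Smarcd1 had 276 CPM in the transgenic library, against 268 CPM in the WT library, a ratio of 1.03 (0.989 to 1.07), and Smarcd2 had 35.2 and 32.7 CPM, a ratio of 1.08 (0.960 to 1.21). The Smarcd3 gene overlaps Chpf2, a glycosaminoglycan synthesis gene on the opposite strand, over 3739 bases. Chpf2 had 285 reads in the transgenic library, against 344 in the WT library, a ratio of 0.814 (0.693 to 0.955), and how reads of the overlap were assigned is not given.

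Smarca4 (ENSMUSG00000032187; chromosome 9, 21616169 to 21704230, + strand), the ATPase of progenitor and neuronal complexes alike, had the highest level of the 10 genes, per length too. It had 9824 reads or 550.1 CPM in the transgenic library and 9904 reads or 564 CPM in the WT library, a ratio of 0.975 (0.948 to 1.002). In the authors' deposited table, 0 of these 10 genes were marked as significant, against 1931 of all 20421 genes (9.46%), so a count of 0 in 10 lies near the background.

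**Figure D2:**
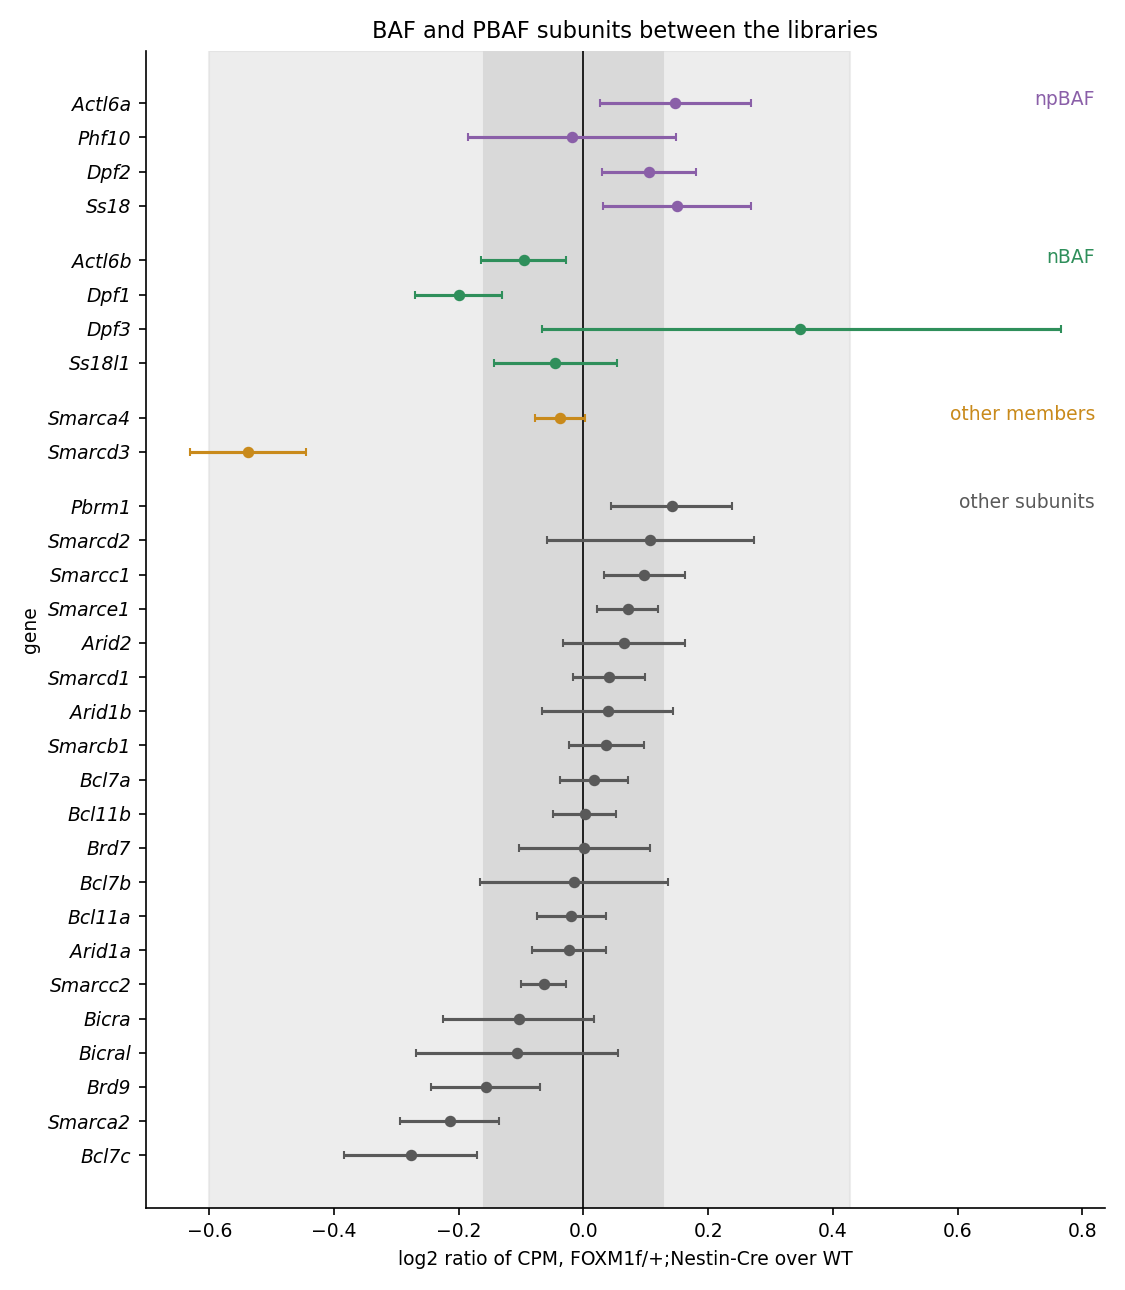
Log2 ratio of CPM, FOXM1f/+;Nestin-Cre over WT, for the 10 genes and for 20 other BAF and PBAF subunits, with 95% counting intervals; dark grey spans the 25th to 75th percentile of all genes tested and light grey the 5th to 95th percentile. Smarcd3 is the lowest of the 30 at -0.54, Dpf3 is the highest at 0.35 with an interval that spans 0, and the other subunits lie between -0.28 and 0.14.

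A ratio of 2 subunits within a library does not depend on how the libraries were scaled, so the balance between alternative subunits was read that way. In all, 11 such balances were computed. Actl6b had 2.89 reads per Actl6a read in the transgenic library, against 3.42 in the WT library. The transgenic balance was 0.845 times the WT balance (0.767 to 0.930, conditional exact interval of the odds ratio). Ss18l1 had 1.34 reads per Ss18 read in the transgenic library, against 1.54 in the WT library, 0.873 times (0.784 to 0.972).

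At the PHD finger position, Dpf1 had 1.05 reads per Dpf2 read in the transgenic library, against 1.30 in the WT library, 0.809 times (0.753 to 0.869). Against Phf10, Dpf1 had 5.24 reads per read in the transgenic library, against 5.94 in the WT library, 0.882 times, with an interval of 0.778 to 0.999 that ends just under 1. The balances that used Dpf3 ran the other way with intervals that spanned 1, at 1.29 times against Phf10 (0.944 to 1.76) and 1.18 times against Dpf2 (0.883 to 1.59). Of the 6 single-gene pairs among the members, 4 thus had intervals wholly below 1 and 0 wholly above 1. Several pairs share a gene and are not separate measurements. How often pairs of other genes with like read numbers have such intervals was not computed, so these counts have no background. For single genes, 16.5% of all tested had intervals above 1 and 19.2% below. With the sets summed, nBAF genes had 1.39 reads per npBAF read in the transgenic library, against 1.63 in the WT library, 0.852 times (0.812 to 0.894).

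Positions outside the npBAF and nBAF lists also differed between the libraries. Smarcd3 had 0.321 reads per Smarcd1 read in the transgenic library, against 0.479 in the WT library, 0.669 times (0.620 to 0.722). Smarca2, the alternative ATPase BRM, had 0.246 reads per Smarca4 read in the transgenic library, against 0.278 in the WT library, 0.884 times (0.831 to 0.941). Smarcc2, the scaffold subunit BAF170, had 2.96 reads per read of its relative Smarcc1 in the transgenic library, against 3.31 in the WT library, 0.894 times (0.849 to 0.942).

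**Figure D3:**
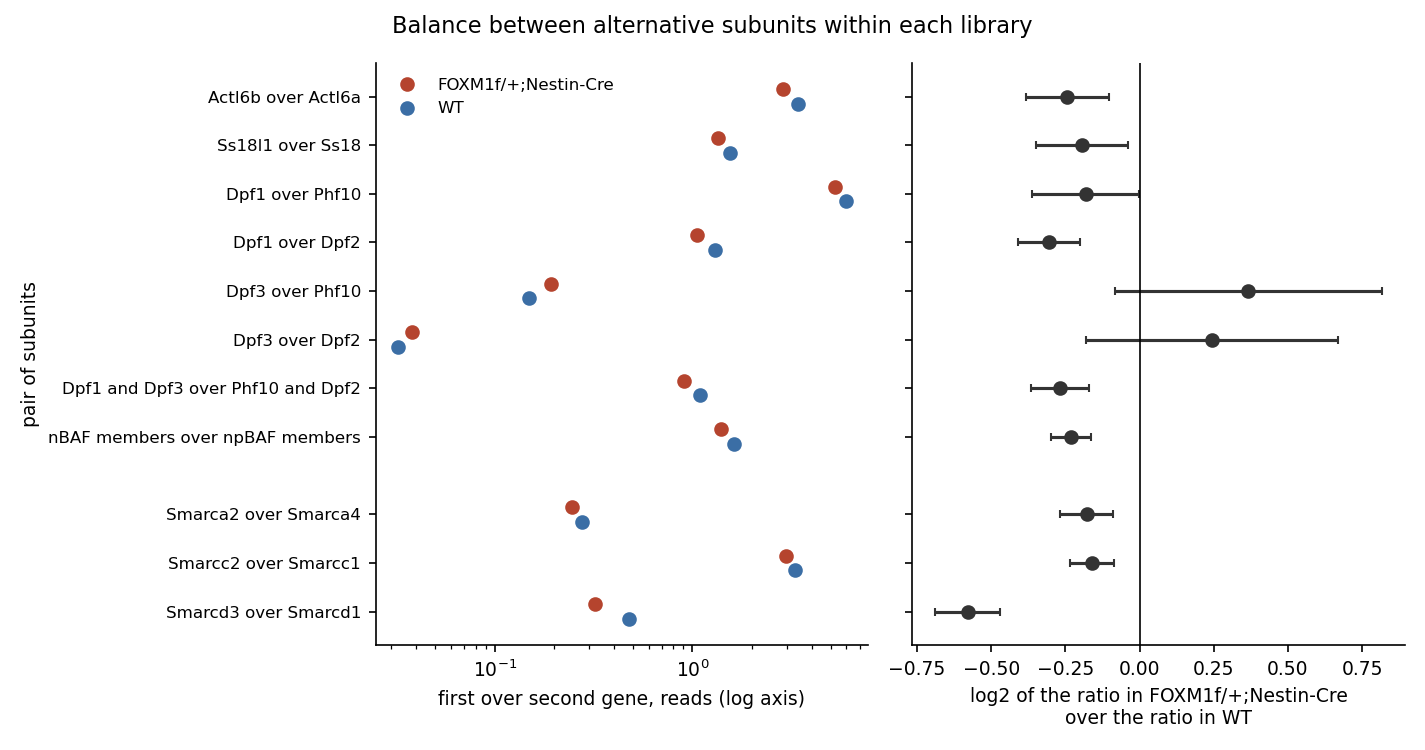
Left, reads of the first gene or set over reads of the second within the FOXM1f/+;Nestin-Cre (red) and WT (blue) library, on a log axis; right, log2 of the transgenic over the WT balance with its 95% counting interval. The 2 balances that use Dpf3 as the first gene alone lie above 0 with intervals that span it, and the other 9 lie below 0. Several balances share genes, and no background over other pairs was computed.

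Per length of exon, the genes kept much the same order in both libraries. Smarca4 had 85.0 CPM per kb in the transgenic library and 87.2 CPM per kb in the WT library. Actl6b followed at 44.9 and 48.0 CPM per kb in the transgenic and WT library, then Dpf1 at 32.5 and 37.3 CPM per kb. Dpf2 (25.6 in the transgenic library, against 23.8 CPM per kb in the WT library), Ss18l1 (21.3 and 22.0) and Actl6a (17.1 and 15.4) came next. Smarcd3, at 17.3 CPM per kb in the transgenic library, against 25.1 in the WT library, took place 6 in the transgenic and place 4 in the WT order.

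Ss18 (7.32 CPM per kb in the transgenic library, against 6.59 in the WT library) and Phf10 (6.78 and 6.87) overlapped each other within their counting intervals in each library, and so did Smarcd3 and Actl6a in the transgenic library, and Smarcd3 with Dpf2, and Dpf2 with Ss18l1, in the WT library. Dpf3 was last at 1.51 CPM per kb in the transgenic library, against 1.19 in the WT library. The neuronal gene was thus the more abundant in the actin-related pair, at 2.63 times Actl6a per length in the transgenic library and 3.11 times in the WT library. In the Ss18l1 and Ss18 pair it was at 2.92 times in the transgenic and 3.34 times in the WT library. These sizes depend on the length used: with the longest annotated transcript of each gene, Actl6b was at 1.87 times Actl6a in the transgenic library, against 2.21 times in the WT library, and Ss18l1 at 1.29 times Ss18, against 1.47 times. Brain RNA mixes progenitors and neurons, and fewer cells of a type and less RNA per cell cannot be told apart in it.

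The 20 other BAF and PBAF subunits had a median log2 ratio of 0.00, and 0 of 20 were 25% higher or 20% lower. Counting intervals lay above 1 for 3 of them, Pbrm1, Smarcc1 and Smarce1, near the share of 16.5% over all genes tested. Pbrm1, the bromodomain subunit that defines PBAF, had 102 CPM in the transgenic library and 92.8 CPM in the WT library, 1.10-fold higher (1.03 to 1.18). Smarcc1, which encodes the scaffold subunit BAF155, had 225 CPM in the transgenic library, against 211 CPM in the WT library, 1.07-fold higher (1.02 to 1.12). Smarce1 had 390.3 CPM in the transgenic library, against 371 CPM in the WT library, 1.05-fold higher (1.02 to 1.09).

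Intervals lay below 1 for 4 of the other subunits, Bcl7c, Smarca2, Brd9 and Smarcc2, near the share of 19.2% over all genes tested. Bcl7c had 73.7 CPM in the transgenic library and 89.4 CPM in the WT library, 1.21-fold lower (1.13 to 1.30). Smarca2 had 135 CPM in the transgenic library, against 157 CPM in the WT library, 1.16-fold lower (1.10 to 1.23). Brd9, which defines a smaller form of the complex, was 1.11-fold lower (1.05 to 1.18), and Smarcc2 1.05-fold lower (1.02 to 1.07). The large ARID subunits that set the type of complex lay near 1, with ratios of 0.984 for Arid1a (0.944 to 1.02), 1.03 for Arid1b (0.955 to 1.10) and 1.05 for Arid2 (0.977 to 1.12). The neuronal transcription factors found with BAF, Bcl11a and Bcl11b, had ratios of 0.987 (0.9496 to 1.03) and 1.001 (0.967 to 1.04).

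Among 5 regulators tied to the switch, 2 had intervals above 1 and 0 below, against 16.5% and 19.2% of all genes tested. Ptbp1, a splicing repressor of progenitors, had 154 CPM in the transgenic library and 132 CPM in the WT library, 1.16-fold higher (1.10 to 1.23). Its neuronal relative Ptbp2 was 1.05-fold higher (1.01 to 1.09). The REST corepressors Rcor1 and Rcor2 had ratios of 0.900 (0.809 to 1.0001, with the upper end just under 1 when marker genes of other cell types were left out of the totals) and 1.01 (0.977 to 1.05). Of 4 dendrite growth genes that neuronal BAF is known to occupy or regulate in mouse neurons, all 4 had intervals below 1. Such intervals were held by 19.2% of all genes tested and 21.1% of those averaging 10 CPM or more. Genes with many reads reach such an interval with a small gap. A lower ratio was found in 24.7% of genes tested for Stmn2, 26.7% for Gap43, 26.3% for Rap1a and 8.24% for Ngef. Stmn2, a microtubule regulator, had 798 CPM in the transgenic library, against 893 CPM in the WT library, 1.12-fold lower (1.09 to 1.15), and the growth cone protein Gap43 was 1.11-fold lower (1.07 to 1.14). Ngef, an exchange factor of neurons, was 1.35-fold lower (1.17 to 1.57) and Rap1a, a small GTPase, 1.11-fold lower (1.01 to 1.22).

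Other ATP-dependent remodellers had a median log2 ratio of -0.01 over 16 genes. Intervals lay above 1 for 5 of them and below 1 for 3, against 16.5% and 19.2% of all genes tested. Hells, a remodeller of dividing cells, had 40.3 CPM in the transgenic library and 24.96 CPM in the WT library, 1.61-fold higher (1.43 to 1.82). Chd7, named here after its value was seen as the other of the 2 genes at least 25% higher, had a ratio of 1.27 (1.17 to 1.39). Within the CHD family of NuRD, Chd4 was 1.11-fold higher (1.07 to 1.14), while Chd3 and the neuronal Chd5 were 1.08-fold (1.05 to 1.10) and 1.23-fold lower (1.16 to 1.31).

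Markers of dividing progenitors and of neurons also differed between the libraries. Over all genes tested, 16.5% had intervals above 1 and 19.2% below. Of 10 progenitor markers, 9 had intervals above 1 and 0 below, with a median log2 ratio of 0.30, and the list summed to 2919 CPM in the transgenic library, against 2353 CPM in the WT library. Vim and Nes, filaments of radial glia, were 1.32-fold (1.29 to 1.36) and 1.23-fold higher (1.19 to 1.28). Of 10 neuronal markers, 0 had intervals above 1 and 8 below, with a median log2 ratio of -0.14, and the list summed to 5939 CPM in the transgenic library, against 6439 CPM in the WT library. Mapt and Camk2b had ratios of 0.794 (0.776 to 0.811) and 0.722 (0.689 to 0.756). No marker of either list was at 0. The median log2 ratio of the npBAF genes, 0.13, was nearer 0 than that of the progenitor markers, and that of the nBAF genes, -0.07, nearer 0 than that of the neuronal markers. The part of cell composition in the subunit ratios was not tested.

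**Figure D4:**
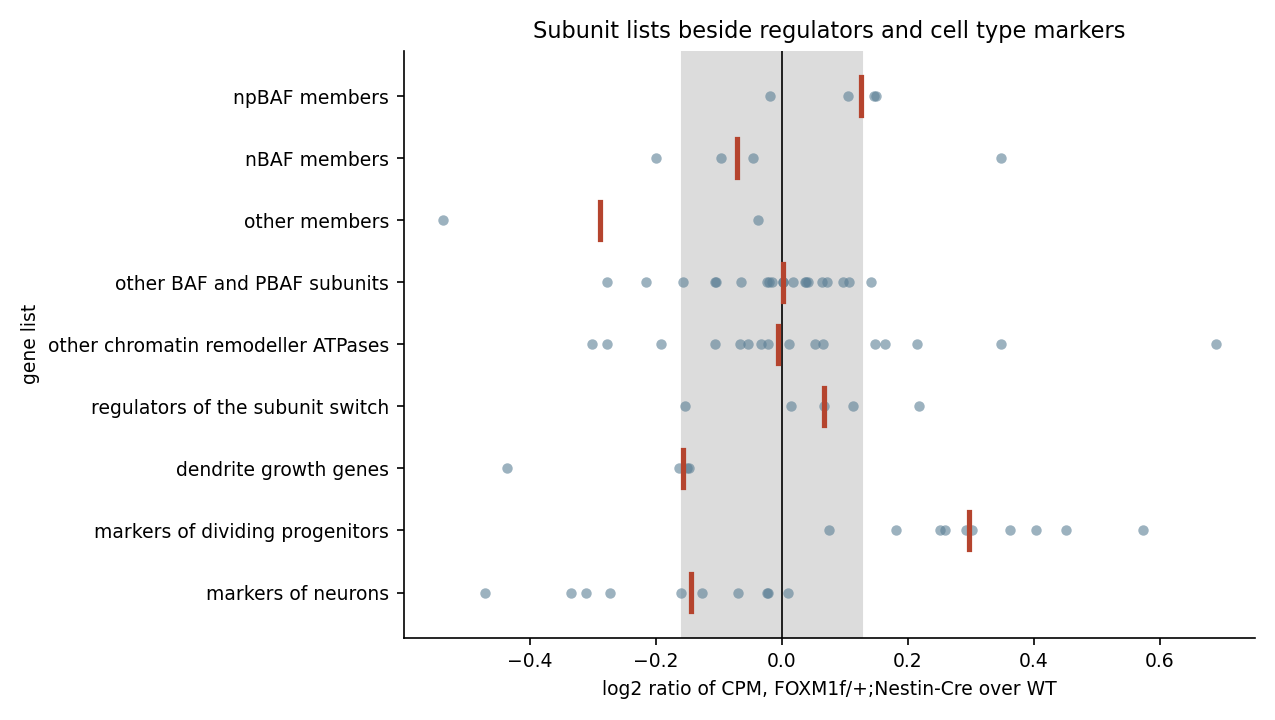
Log2 ratio of CPM, FOXM1f/+;Nestin-Cre over WT, of each gene (points) and the median (red bar) of 9 gene lists; grey spans the 25th to 75th percentile of all genes tested. The npBAF genes centre at 0.13 and the nBAF genes at -0.07, on the same sides of 0 as the markers of dividing progenitors at 0.30 and of neurons at -0.14.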

How the data were processed

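Per the labels' protocols, RNA was extracted with Trizol and 2 ug per sample entered the libraries. Bowtie2 2.2.3, TopHat2 2.0.12 and HTSeq 0.6.0 and the build mm9 are named in the submitters' processing notes. The table's coordinates match GRCm38: 91.6% of 20388 genes found in GENCODE M21, and all 10 members, had the same position. The sources used here do not give the strand setting, the annotation release or the handling of multi-mapping reads. Per the file headers, the authors deposited 1 column of raw read counts and 1 of normalized values per genotype. The normalized values are CPM, the deposited count over a column total, with 0 entered as 0.5 reads. The authors' fold change column is the ratio of the CPM columns and their log2 column its logarithm. Their deposited p-values compare 1 column with 1 column by an unstated test and were not used.

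With 1 library per genotype no test was run, and edgeR's quasi-likelihood test, held ready for replicates, did not apply. Each ratio is transgenic over WT CPM with an exact conditional (Clopper-Pearson) 95% interval for 2 Poisson rates. Balances have conditional exact intervals of the odds ratio. The reads carry no molecular identifiers that the sources mention and may repeat a molecule, so intervals cover counting error only. Levels per length divide by the union of GENCODE M21 exons. The genes tested are those that averaged at least 1 CPM, and a member was called at 25% higher or 20% lower.

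The 10 members and the gene lists were chosen with earlier results of these data known. Named were all members, other subunits past that mark or paired with a member, and up to 4 genes per further list by difference over counting error; other subunits and switch regulators beyond that were named for their intervals or roles after values were seen. Motifs were chosen after the table was read. Intervals were run on simulated Poisson counts, the model that they assume. The simulation held no spread between animals and no repeated molecules, so it checked the computation alone. Scaling factors came from edgeR 4.0.16 in R 4.3.3; the rest used Python 3.11.15, NumPy 2.4.6, pandas 2.3.3, SciPy 1.17.1 and Matplotlib 3.10.9.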

Additional observations from a re-analysis of the deposited data

How the results depend on the processing

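Over TMM and RLE scaling, totals without list genes of other cell types, and counts plus 0.5, no member's log2 ratio left its counting interval in 40 recomputed values, and the shift was at most 0.03. Each scaling moves all genes by the same amount, so these values are not separate checks. The 11 balances between subunits stayed within their intervals with 0.5 added to each count. With at least 88 reads in each count, that addition could hardly have moved a balance, so it is a weak check. RLE scaling turned the sign of Phf10, Arid1a, Bcl7b and Bcl11a, whose intervals span 1, and lifted the intervals of Smarcb1 and Smarcd1 above 1; TMM scaling also turned Bcl7b. Without list genes in the totals, which moves every gene alike by -0.0003, the interval of Rcor1 fell just below 1, which makes 1 of the 5 switch regulators below. The numbers of members called depended on the rule. Dpf3, the 1 member called higher, dropped out (0 called) with a mean of at least 10 CPM, because its own mean is below that. At a fold of at least 1.5 or at least 2, 0 members were called higher and 0 lower, and by a counting interval on one side of 1, 3 were called higher and 3 lower. With the longest annotated transcript as length, Actl6a took place 5 and Ss18l1 place 7 in the transgenic order; the WT order had Actl6a at place 6, Phf10 at place 9, Dpf2 place 4, Ss18 place 8, Ss18l1 place 7 and Smarcd3 place 5; the other 12 places held. No paired analysis was possible because each genotype has 1 column, which also leaves no replicate to leave out. Depth limits Dpf3, with 114 and 88 reads in the transgenic and WT library.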
